A study of Mus musculus with 6 samples.

Results

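The genes described are Krt7, Krt8, Krt18, Krt19, Krt20 and Krt12, 6 of the 53 rows with a keratin symbol in the deposited tables, which list 32285 genes in all. They are keratins of simple epithelia (Krt7, Krt8, Krt18, Krt19 and Krt20) and the keratin of the corneal surface (Krt12), and they were chosen by name with their presence in these organoids known. Their course along the axis from Krt14 to Krt13 was known when they were chosen, as was the lower level of Krt20 in Krt13-expressing cells of Cyto-ID High organoids. Both are therefore given as descriptions, with no test. The cells are the 25154 of 26808 barcodes in which 500 or more genes had a non-zero value.

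The cells came from organoids grown for 15 days in Matrigel from basal cells of the esophagus of C57BL6 mice. Before culture, live (DAPI-negative) cells that carried integrin-b1 were sorted by Cyto-ID, a dye that stains autophagic vesicles, into a Cyto-ID Low and a Cyto-ID High population. Each population gave 3 libraries of single cells, with the tags F2, M3 and F6 in both groups. The labels give no genotype, drug or other treatment that separates the groups. Both were cultured in the same medium with EGF, Noggin, R-spondin and Y27632, and the Cyto-ID state is that of the cells seeded, not of the cells sequenced. The labels do not say how many animals gave each library, so the spread between libraries may be in part technical.

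Keratins are intermediate filament proteins that assemble only as pairs of a type II and a type I chain. Basal cells of stratified squamous epithelium use Krt5 with Krt14, and esophageal cells that leave the basal layer replace these with Krt4 and Krt13. In simple epithelia the type II chains Krt7 and Krt8 pair with the type I chains Krt18, Krt19 and Krt20. Krt8 with Krt18 is the first pair to appear in the embryo, Krt19 and Krt7 mark ducts and many glands, Krt20 marks gastrointestinal and urothelial surface cells, and Krt12 is known from corneal epithelium, where it pairs with Krt5 in mice.

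The median depth of the kept cells ranged from 1940.5 UMIs (unique molecular identifiers, 1 per captured transcript) in Cyto-ID High F6 to 10038 in Cyto-ID High F2. The library totals ranged from 8231527 to 48873796 UMIs, and at most 10 cell barcodes were shared by any of the 15 pairs of libraries. The basal and suprabasal markers of squamous epithelium were all above a mean of 5 CPM over the libraries. Of 10 markers of columnar or gastric epithelium none reached this mean, and Tff3, Gkn2 and Cldn18 had no UMI. Their summed level was 0.915 to 4.98 CPM in the Low and 0.31 to 3.35 CPM in the High libraries. Likewise none of 6 Merkel cell markers, 4 mesothelial markers and 4 urothelial umbrella cell markers reached 5 CPM, and Atoh1, the defining factor of Merkel cells, and Wt1, that of mesothelium, had no UMI. Of 4 corneal markers Aldh3a1, Clu and Tkt were above 5 CPM and Pax6, the defining factor of the eye, was not, with at most 3 UMIs in a library. Aldh3a1, an aldehyde dehydrogenase, was 2.83 to 9.55 CPM in the Low and 20.9 to 46.6 CPM in the High libraries. The simple keratins were therefore measured in libraries in which the 10 listed columnar or gastric markers together stayed under 5 CPM. Other genes of simple or columnar epithelium are not covered by this list. Of the immune markers Ptprc had no UMI, but Cd68, which encodes a lysosomal membrane protein, passed this mean, with 15.2 to 22.0 CPM in the Low and 8.25 to 14.6 CPM in the High libraries. No endothelial or fibroblast marker reached it; Cdh5 and Col3a1 had no UMI, and the other markers of these lists summed to at most 0.854 and 4.23 CPM in a library.

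Levels are given in CPM, each cell's UMIs of a gene per 1000000 of its UMIs, averaged over cells. Since the kit reads 1 tag per transcript, they were not divided by gene length. Differences between genes in capture and mapping were not tested, so an order of genes is one of measured levels. Over all kept cells Krt7 had the highest level of the 6 genes, with a mean over the 6 libraries of 1166 CPM, followed by Krt19 at 386, Krt18 at 326, Krt20 at 212, Krt8 at 62.0 and Krt12 at 25.6 CPM. Within single libraries this order held in 6 of 6 at every step except Krt19 over Krt18, which held in 4 of 6. The ranges over libraries of each pair of neighbours overlapped. The type II chain Krt8 thus had a lower measured level than either of the type I chains Krt18 and Krt19, and Krt7 had the highest measured level of the type II chains of the group.

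Cells were placed on the Krt14 to Krt13 axis by the share of Krt13 in their UMIs of both genes, in 5 bins of equal width. Bin 1, called the Krt14 end, holds cells with a share under 0.2; bin 5, the Krt13 end, holds shares of 0.8 and above; and bins 2 to 4 form the mixed zone. Cells with fewer than 10 UMIs of both genes were left off the axis. They were 1.99% to 12.3% of cells in 5 libraries but 31.2% in Cyto-ID High F6, which is the library with the shallowest cells.

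Krt7, a type II keratin of ducts and transitional epithelium, was concentrated at the Krt13 end. Its mean level over the 6 libraries was 411, 573, 846, 1432 and 4343 CPM from bin 1 to bin 5. In the Cyto-ID Low libraries it went from 697 CPM in bin 1 to 5135 in bin 5 (F2), from 251 to 5111 (M3) and from 847 to 5581 (F6). In the Cyto-ID High libraries it went from 330 to 3890 (F2), from 295 to 5050 (M3) and from 48.3 to 1289 CPM (F6). Bin 5 was the highest in 6 of 6 libraries, and the level there was 6.58 to 26.7 times that of bin 1, with a median of 14.5. The step from bin 4 to bin 5 was the largest, and Cyto-ID High F6 was the lowest library in every bin.

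Because depths differed, the share of cells with a Krt7 UMI was counted after thinning each cell to 1000 UMIs, which left 2611 to 5575 cells of the 2667 to 5617 in a library. Among Krt13-end cells this share lay between 43.5% (95% Wilson interval 37.0% to 50.2%, Cyto-ID High F6) and 86.4% (83.9% to 88.6%, Cyto-ID Low F2). At the Krt14 end it lay between 3.54% (2.80% to 4.46%, Cyto-ID High F6) and 39.2% (36.6% to 42.0%, Cyto-ID Low F6). Without thinning the shares were 54.0% to 95.9% at the Krt13 end and 5.70% to 64.6% at the Krt14 end. Krt13-end cells, which made up 4.79% to 22.6% of a library, held 33.4% to 66.3% of its Krt7 UMIs. The intervals cover counting error only, and no cell type known to lack these genes was present to set a background of free RNA.

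Krt19, a type I keratin of ducts and of some basal layers, had the steepest course of the 6 genes by the median. Its mean level was 86.6, 279, 417, 777 and 1377 CPM from bin 1 to bin 5, and bin 5 was the highest in 6 of 6 libraries. The level in bin 5 was 10.1 to 68.2 times that in bin 1, with a median of 17.8; the top of that range came from Cyto-ID High F6, where bin 1 held 5.05 CPM. In bin 5 the Low libraries had 1432 (F2), 2306 (M3) and 1006 CPM (F6), and the High libraries had 1364 (F2), 1811 (M3) and 345 CPM (F6). The F6 libraries were thus the lowest of their group in both, and Krt19 differed from Krt7 in this, since Krt7 at the Krt13 end was highest in Low F6.

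Krt8 and Krt18, the type II and type I chains that pair with each other in simple epithelia, followed flatter courses. Krt8 had mean levels of 37.2, 59.5, 82.1, 91.5 and 125 CPM from bin 1 to bin 5, and Krt18 had 216, 302, 405, 443 and 643 CPM. The ratio of bin 5 to bin 1 was 2.31 to 5.35 for Krt8 (median 4.29) and 2.09 to 5.86 for Krt18 (median 3.36). Bin 5 was the highest in 6 of 6 libraries for Krt18 and in 5 of 6 for Krt8; in Cyto-ID Low F2 Krt8 was highest in bin 3, at 182 CPM against 135 CPM in bin 5. Part of the UMIs of both genes lay in cells that were still Krt14-rich. Krt14-end cells held 21.7% to 60.2% of a library's Krt8 UMIs and 23.4% to 51.3% of its Krt18 UMIs, against 9.68% to 29.3% for Krt7. These cells made up 43.5% to 69.4% of a library, in each library more than their share of the Krt8 or Krt18 UMIs. The mean level of Krt7 in bin 1, 411 CPM, was above that of Krt18 and Krt8.

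Both chains were detected in the same cells. After thinning, a Krt18 UMI was found in 34.9% to 69.8% of cells with a Krt8 UMI and in 4.99% to 31.1% of cells without one, and the first share was above the second in 6 of 6 libraries. The same held in 6 of 6 libraries within the Krt14 end (14.3% to 70.9% against 2.41% to 23.9%) and within the Krt13 end (38.5% to 82.4% against 18.4% to 44.3%). As few as 13 cells with a Krt8 UMI stand behind a share at the Krt13 end. Across the 30 means of 6 libraries and 5 bins, Krt18 was also the gene whose log level was most like that of Krt8 among 6647 genes at 10 CPM or more (Pearson r = 0.95). These points share libraries and bins, so r is a description. Basp1 came next for both (r = 0.94 and 0.94), followed by Smox, which encodes spermine oxidase, for Krt8 (0.93) and Srd5a1, which encodes a steroid reductase, for Krt18 (0.94).

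The genes for Krt8 and Krt18 lie next to each other on chromosome 15 (GRCm38, Krt8 at chr15:101996698-102004482 on the minus strand and Krt18 at chr15:102028180-102032027 on the plus strand), with 23697 bases between them. Krt12 and Krt20 are also neighbours, on the minus strand of chromosome 11 (chr11:99415666-99422259 and chr11:99428403-99438150), with 6143 bases between them. Krt7 lies at chr15:101411043-101430313 and Krt19 at chr11:100140810-100148665, each among other keratin genes of its type. The 250 bases before the RefSeq start of these 4 neighbours are shown, because 1 pair has alike courses and the other has different ones. They are from RefSeq (GRCm38.p6), read 5′ to 3′ on the gene's strand, and end at the base before the RefSeq start (chr15:102004343-102004592, chr15:102027966-102028215, chr11:99438154-99438403 and chr11:99422260-99422509). The loci above are from GENCODE, and its starts are not the same: the RefSeq start lies 140 bases downstream of the GENCODE start for Krt8, 36 bases downstream for Krt18 and 3 bases upstream for Krt20, so the windows of Krt8 and Krt18 reach into the genes as given above. Capitals mark TATAAA and CACCC, with GGGTG where the latter lies on the other strand.
Krt8: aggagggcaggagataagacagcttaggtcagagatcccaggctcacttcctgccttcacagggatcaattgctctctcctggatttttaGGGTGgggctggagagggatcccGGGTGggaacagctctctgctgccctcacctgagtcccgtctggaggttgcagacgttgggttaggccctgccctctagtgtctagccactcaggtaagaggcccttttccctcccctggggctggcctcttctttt
Krt18: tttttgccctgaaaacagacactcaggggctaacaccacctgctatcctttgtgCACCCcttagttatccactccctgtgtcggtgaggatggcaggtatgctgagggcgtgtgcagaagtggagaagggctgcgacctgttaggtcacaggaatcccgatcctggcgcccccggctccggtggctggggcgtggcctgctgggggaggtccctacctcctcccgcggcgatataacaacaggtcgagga
Krt20: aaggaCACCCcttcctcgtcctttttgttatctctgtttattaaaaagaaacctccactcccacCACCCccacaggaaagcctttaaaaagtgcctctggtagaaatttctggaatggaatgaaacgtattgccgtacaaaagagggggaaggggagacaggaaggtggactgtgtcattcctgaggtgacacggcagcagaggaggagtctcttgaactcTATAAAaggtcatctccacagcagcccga
Krt12: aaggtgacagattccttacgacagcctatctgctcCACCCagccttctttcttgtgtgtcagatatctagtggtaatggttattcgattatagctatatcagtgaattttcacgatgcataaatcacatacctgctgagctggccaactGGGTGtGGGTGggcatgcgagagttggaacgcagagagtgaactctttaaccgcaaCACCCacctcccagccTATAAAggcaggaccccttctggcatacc
TATAAA, the core of the TATA box, occurred once in Krt20 and once in Krt12, in both with its nearer end 23 bases before the start, and in neither Krt8 nor Krt18. It is found on either strand in 12.4% of the 32851 RefSeq windows of this length. CACCC, the letters that Krüppel-like factors bind, occurred 4 times in Krt12, 2 times each in Krt20 and Krt8, and 1 time in Krt18 and Krt7, and is found in 52.0% of windows. TGANTCA, the letters of an AP-1 site, occurred in none of the 5 members with a sequence, and in 6.75% of windows. The window of Krt7, not shown, lies wholly inside its GENCODE gene, since its RefSeq start is 1360 bases downstream of the GENCODE start. A match describes letters only.

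Krt20, a type I keratin of gastrointestinal surface cells, had the largest relative step from bin 1 to bin 2 of the 6 genes, by the median over libraries. Its mean level was 56.8, 250, 416, 495 and 627 CPM from bin 1 to bin 5, and bin 2 already stood 3.38 to 5.49 times above bin 1, with a median of 4.30 and in 6 of 6 libraries. For Krt7 the same ratio was 0.956 to 2.22, with a median of 1.59, although its level was above that of Krt20 in both bins. The mixed zone held 31.2% to 44.3% of the Krt20 UMIs of a library and 13.6% to 23.3% of its Krt7 UMIs. Bin 5 was the highest for Krt20 in 5 of 6 libraries, and bin 4 in Cyto-ID Low F2 (807 against 691 CPM). The genes most like Krt20 over the 30 points were Ecm1 (r = 0.98), which encodes an extracellular matrix protein, Arg1 (0.97), which encodes arginase, and Cldn7 (0.97), which encodes a tight junction claudin.

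Krt12 was the exception among the 6 genes, since its level was highest between the ends and lowest at the Krt13 end. Its mean level was 26.8, 51.1, 35.4, 21.8 and 7.93 CPM from bin 1 to bin 5. The highest bin was bin 2 in 4 libraries and bin 3 in the other 2 (Cyto-ID High M3 and F6), and bin 5 was below bin 1 in 6 of 6 libraries, at 0.083 to 0.759 times its level. In bin 2 the Low libraries had 48.8 (F2), 89.5 (M3) and 70.9 CPM (F6), and the High libraries had 31.2 (F2), 36.0 (M3) and 29.99 CPM (F6). The gene is rare: after thinning, 1.62% to 4.11% of Krt14-end cells and 0.218% to 1.32% of Krt13-end cells had a Krt12 UMI (3.49% to 15.2% and 1.86% to 6.91% without thinning). The genes most like it were Krt5 (r = 0.87), the basal type II keratin that can pair with it, Trim29 (0.87), a gene of squamous basal cells, and Uck2 (0.86), a uridine-cytidine kinase.

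The neighbouring genes Krt12 and Krt20 did not share their cells in the way Krt8 and Krt18 did. Among all cells 3.45% to 21.3% of those with a Krt12 UMI had a Krt20 UMI, against 4.90% to 22.2% of those without, and the first share was higher in 1 of 6 libraries. Within the mixed zone it was higher in 3 of 6 libraries. The mixed-zone shares rest on 14 to 86 cells with a Krt12 UMI per library.

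**Figure D1:**
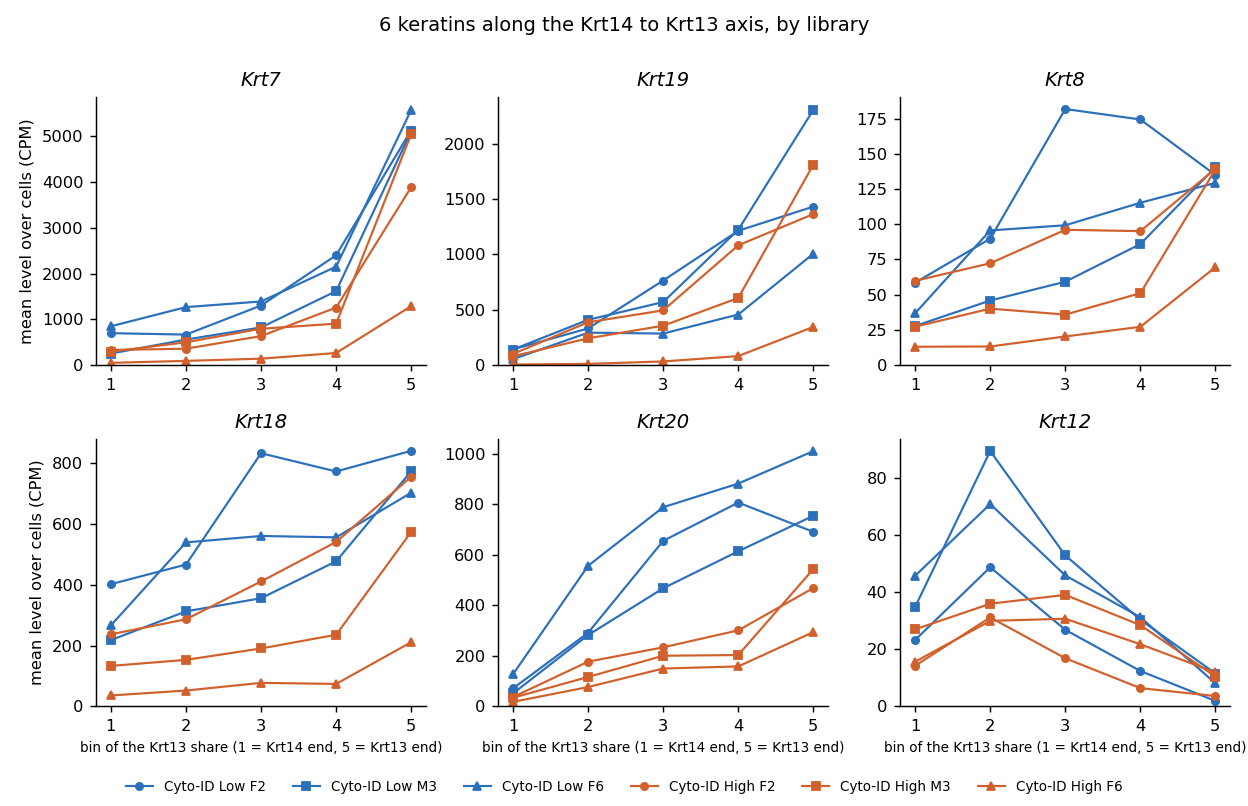
Mean level over cells (CPM) of each keratin in the 5 bins of the Krt13 share, with 1 line per library (blue Cyto-ID Low, orange Cyto-ID High). Krt7 steps up at the last bin, Krt20 is 3.38 to 5.49 times as high in bin 2 as in bin 1, and Krt12 has its highest level in bin 2 or 3 in all 6 libraries.

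Of the 53 keratin rows, 18 reached a mean of 10 CPM over the bins and 5 had no UMI. Set among these 18, Krt7, Krt19, Krt18, Krt8 and Krt20 had their highest mean in bin 5, as did Krt23 (13.9 in bin 1, 664 CPM in bin 5) and Krt80 (1.496 and 38.0 CPM). The esophageal suprabasal keratins Krt13 and Krt4 were highest in bin 4, at 15166 and 2449 CPM, with Krt13 itself defining the axis. Their means in bin 5 were close to these, at 14569 and 2441 CPM. Krt12 shared bin 2 as its highest with Krt14 (13826 CPM) and Krt5 (4041 CPM), of which Krt14 defines the axis. The stress keratin Krt16 was highest in bin 3 (3720 CPM), and Krt17 in bin 1 (2448 CPM).

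**Figure D2:**
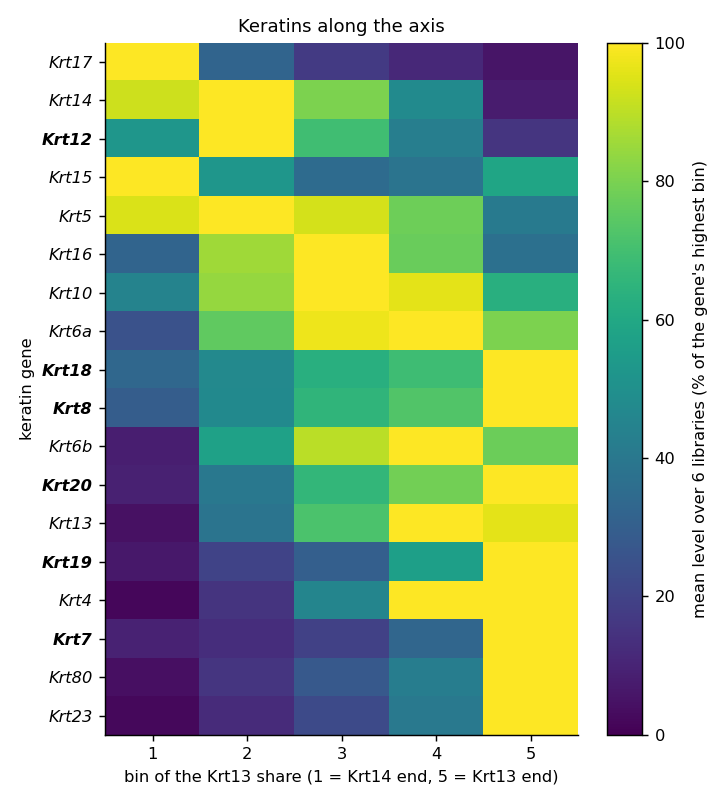
Mean level over the 6 libraries of the 18 keratins at 10 CPM or more, in each bin of the Krt13 share, as a percentage of the gene's own highest bin (colour scale 0 to 100); rows run from genes weighted to the Krt14 end to those weighted to the Krt13 end, and bold names are the 6 genes described. Krt12 sits with Krt14, Krt5, Krt15 and Krt17, and Krt7 with Krt23 and Krt80.

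The Krt13-end cells were not uniform. When those of each library were divided into tertiles by their Krt7 level, the mean Krt7 level ranged over libraries from 0 to 1213 CPM in the lowest and from 3503 to 12110 CPM in the highest tertile. Krt19 was higher in the highest than in the lowest tertile in 6 of 6 libraries, with medians over libraries of 1665 and 574 CPM. The superficial-cell genes Psca, a surface protein of the Ly6 family, and Tspan1, a tetraspanin, did likewise in 6 of 6 libraries, and the third superficial marker, Sprr2f, a cornified envelope protein, did so in 5 of 6 (543.6 against 694 CPM in High F6). For Tspan1 the highest tertile had 2315, 1355 and 1257 CPM in Low F2, M3 and F6 and 1581, 656 and 330 CPM in High F2, M3 and F6. The lowest tertile had 312, 22.8 and 26.3 CPM in the same Low libraries and 243, 17.0 and 16.6 CPM in the same High libraries.

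Krt18 was higher in the highest tertile in 5 of 6 libraries and Krt8 in 4 of 6. The exceptions were Cyto-ID Low F2 for both and Cyto-ID High F2 for Krt8. Krt20 went the other way, with a lower level in the highest tertile in 5 of 6 libraries (median 379 against 683 CPM). Krt12 did so in 5 of 6 (0.836 against 13.5 CPM). Its levels rest on few UMIs, with 0 to 20.9 CPM in the highest and 4.22 to 27.6 CPM in the lowest tertile. Krt13 and Krtdap, a secreted protein of differentiating keratinocytes, were lower in the highest tertile in 6 of 6 libraries. Of the other suprabasal markers, Krt4 was lower in 5 of 6, all but High F6 (2532 against 2350 CPM). Sbsn was lower in 4 of 6, all but Low M3 and Low F6. Krt7-rich cells at the Krt13 end thus had less Krt13 in 6 of 6 libraries. They had less Krt20 in each library except Cyto-ID High M3. Krt14, the other gene of the axis, was also lower in the highest tertile in 6 of 6 libraries. Its medians over libraries were 450 against 1595 CPM, where Krt13 had 10431 against 18514 CPM. By these medians Krt14 fell by the larger factor, so less Krt13 is not a lower Krt13 share here. The median depth of the highest tertile was 0.891 to 1.28 times that of the lowest; it was lower in 3 libraries and higher in the other 3, most in Low F6 (4585.5 against 3582 UMIs). These tertiles were cut from the same values that they describe, and no test is given.

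**Figure D3:**
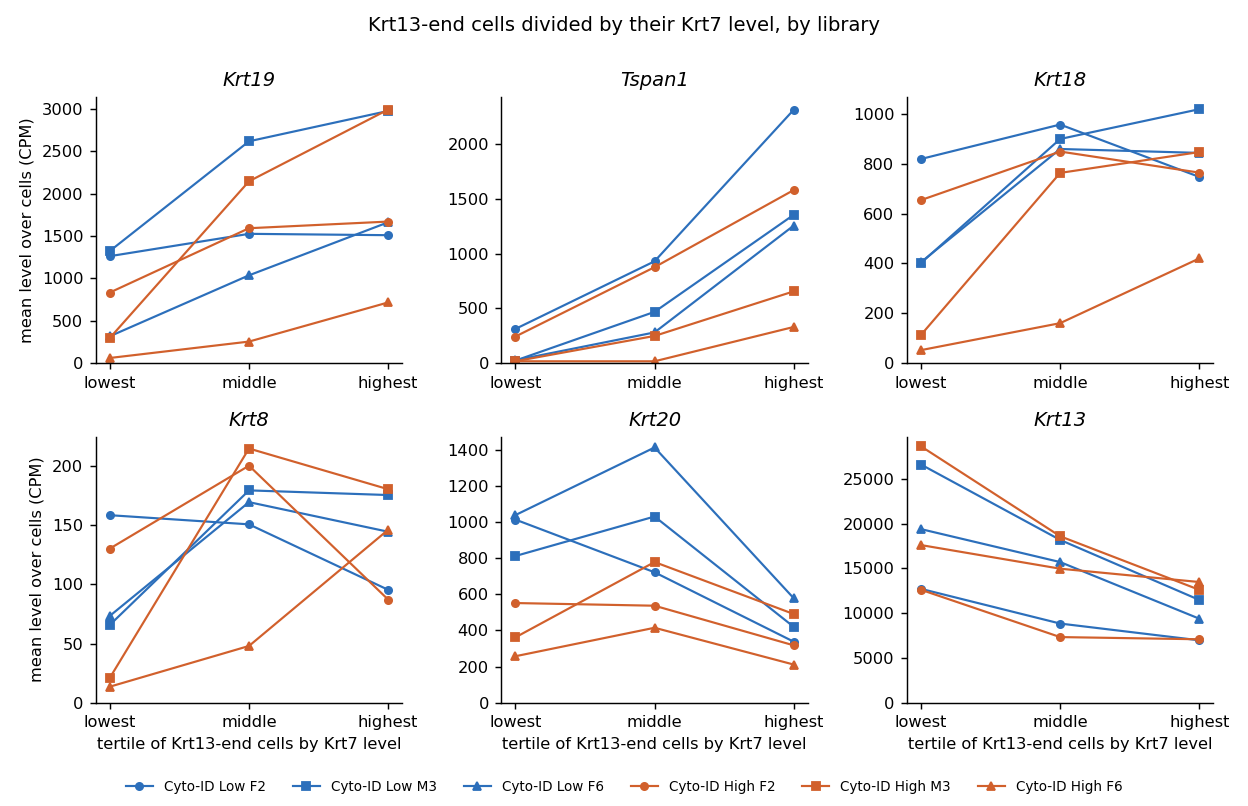
Mean level over cells (CPM) in the lowest, middle and highest tertile of Krt13-end cells by Krt7 level, with 1 line per library (blue Cyto-ID Low, orange Cyto-ID High). Lines for Krt19 and Tspan1 end above where they start in all 6 libraries, those for Krt13 end below, and Krt20 ends below in 5.

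A Krt19 UMI was found, after thinning, in 33.3% to 61.2% of Krt13-end cells with a Krt7 UMI and in 7.44% to 33.3% of cells without one, and the first share was the higher in 6 of 6 libraries. For Krt18 the shares were 31.2% to 47.8% and 10.2% to 37.6%, again with the first the higher in 6 of 6. Eps8l2, an actin regulator, was the gene most like Krt7 over the 30 points (r = 0.95), followed by Ube2f and Cblc (both 0.94). For Krt19 it was Mlph, a melanosome transport adaptor (0.95), followed by Ltf, which encodes lactotransferrin (0.94), and Cblc, a ubiquitin ligase of epithelia (0.93). Among themselves Krt7, Krt8, Krt18 and Krt19 had r of 0.88 to 0.95, and each had a negative r with Krt12.

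The second question was whether organoids that started from Cyto-ID Low or High cells differed in these genes. Levels were compared by limma on the 3 Low and 3 High libraries, over all cells and within each zone of the axis, with adjustment over all genes tested. All 6 genes passed the filter of 1 CPM in 3 libraries in every zone. Krt20 is left out of the counts and medians here, since its difference was known. Over all cells the fitted value was below 0 for 5 of 5 genes, where 53.6% of all genes tested were below 0. The median log2 fold change was -1.17 for the 5 genes and -0.02 for all genes; without Cyto-ID High F6 it was -0.58 for the 5 genes. None of the 5 tested members passed an adjusted p of 0.05; 0.12% of the 11645 genes tested passed it as higher in High and 0.0% as lower.

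Krt7 over all cells was 1924 (F2), 1053 (M3) and 1937 CPM (F6) in the Low libraries and 802 (F2), 1063 (M3) and 220 CPM (F6) in the High libraries. The groups overlapped in the M3 libraries alone, which were nearly equal. The means were 1638 ± 507 and 695 ± 432 CPM (SD, n = 3 each), and the log2 fold change was -1.38 ± 0.56 (SE, limma, adjusted p = 0.61). In the mixed zone the groups did not overlap, with 1406 (F2), 874 (M3) and 1558 CPM (F6) in Low and 636 (F2), 689 (M3) and 146 CPM (F6) in High. The difference there was -1.47 ± 0.52 (limma, adjusted p = 0.50). At the Krt13 end the groups again did not overlap (5111 to 5581 against 1289 to 5050 CPM), but High M3 lay close to the Low libraries and the difference was -0.90 ± 0.59 (limma, adjusted p = 0.99), or -1.37 without High M3.

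Krt18 over all cells was 568 (F2), 331 (M3) and 420 CPM (F6) in Low and 330 (F2), 232 (M3) and 74.7 CPM (F6) in High. The groups just failed to overlap, at 331 against 330 CPM. The difference was -1.18 ± 0.48 (limma, adjusted p = 0.61) over all cells, -1.27 ± 0.52 at the Krt14 end (adjusted p = 0.56) and -1.46 ± 0.48 in the mixed zone (adjusted p = 0.46). Krt8, its partner, was 93.7 (F2), 50.8 (M3) and 69.9 CPM (F6) in Low and 74.0 (F2), 56.0 (M3) and 27.2 CPM (F6) in High, and the groups overlapped. Its difference was -0.43 ± 0.35 over all cells (limma, adjusted p = 0.76) and -1.06 ± 0.44 in the mixed zone (adjusted p = 0.60), where High was below Low for 3 of 3 tags. Without Cyto-ID High F6 the mixed-zone difference was -0.57, and the difference over all cells was -0.05 without that library and -0.22 without Cyto-ID Low F2.

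Krt19 over all cells was 588 (F2), 562 (M3) and 323 CPM (F6) in Low and 348 (F2), 442 (M3) and 50.8 CPM (F6) in High. It was lower in High for 3 of 3 tags, the groups overlapped, and the difference was -1.17 ± 0.70 (limma, adjusted p = 0.69). Much of this difference rested on 1 library: without Cyto-ID High F6 it was -0.22 over all cells, -0.10 at the Krt14 end, -0.13 in the mixed zone and 0.08 at the Krt13 end, in place of -1.33, -1.33 and -0.71 in these zones. In the other direction, it was -1.80 over all cells without Cyto-ID High M3, -2.002 in the mixed zone without Cyto-ID High F2 and -1.26 at the Krt13 end without Cyto-ID High M3. Over all alternatives named below, the lowest values at the Krt13 end were -1.66 for Krt7, -1.46 for Krt18, -1.44 for Krt19 and -1.03 for Krt8. Without Cyto-ID High F6, Krt7 was -0.72, Krt18 -0.58 and Krt12 -0.59 over all cells. Krt7 without that library was -0.68, -0.79 and -0.25 in the 3 zones in place of -1.48, -1.47 and -0.90, and Krt18 was -0.60, -0.83 and -0.22 in place of -1.27, -1.46 and -0.83. Krt8 turned to 0.13 at the Krt14 end and 0.05 at the Krt13 end, from -0.31 and -0.34. Cyto-ID High F6 is also the library of the shallowest cells and of the most cells off the axis, and the part of these in the differences was not tested.

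Krt20 was lower in every High library than in every Low library, over all cells and in each zone. Of all genes tested, 8.13% were apart in this way over all cells. The shares were 10.3% at the Krt14 end, 10.5% in the mixed zone and 3.39% at the Krt13 end. At the Krt14 end Krt20 was 71.6 (F2), 51.5 (M3) and 128 CPM (F6) in Low and 37.2 (F2), 34.5 (M3) and 18.1 CPM (F6) in High. In the mixed zone it was 563 (F2), 415 (M3) and 724 CPM (F6) in Low and 221 (F2), 164 (M3) and 120 CPM (F6) in High. At the Krt13 end it was 691 (F2), 755 (M3) and 1011 CPM (F6) in Low and 469 (F2), 544 (M3) and 294 CPM (F6) in High. The mean in High was 0.358, 0.297 and 0.532 times that in Low in the 3 zones, with log2 fold changes of -1.25 ± 0.36, -1.59 ± 0.30 and -0.99 ± 0.38 (SE). Without Cyto-ID High F6 these were -1.02, -1.41 and -0.67, so the direction did not rest on that library. The lower level was also seen as fewer cells with a UMI: after thinning, 32.5% ± 5.06 of mixed-zone cells in Low and 13.1% ± 2.98 in High had a Krt20 UMI (SD, n = 3 each). Without thinning the libraries ranged from 58.5% to 69.7% in Low and from 16.8% to 42.8% in High. Since this difference was known when the gene was chosen, it has no p here.

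Krt12 over all cells was 19.2 (F2), 39.0 (M3) and 37.1 CPM (F6) in Low and 13.8 (F2), 26.4 (M3) and 18.2 CPM (F6) in High. It was lower in High for 3 of 3 tags, the groups overlapped, and the difference was -0.58 ± 0.37 (limma, adjusted p = 0.70). At the Krt14 end and in the mixed zone the differences were -0.67 ± 0.34 (adjusted p = 0.64) and -0.57 ± 0.35 (adjusted p = 0.73). These values moved with single libraries: over all cells the difference was -0.27 without Cyto-ID High F2 and -0.90 without Cyto-ID Low F2. At the Krt14 end it was -0.43 without either Cyto-ID High F2 or Cyto-ID Low F6, and in the mixed zone it was -0.29 without Cyto-ID High F2, -0.33 without Cyto-ID Low M3 and -0.90 without Cyto-ID Low F2. The corneal marker Aldh3a1 differed in the other direction, by 2.47 ± 0.40 over all cells (limma, adjusted p = 0.069) and 3.103 ± 0.44 at the Krt14 end (adjusted p = 0.022, but 0.085, 0.077 and 0.10 without High F2, High F6 and Low F6). Clu and Tkt, the other corneal markers above 5 CPM, did not follow Aldh3a1. Clu had -0.75 ± 0.63 over all cells and -1.36 ± 0.76 at the Krt14 end (limma, adjusted p = 0.76 and 0.66). Tkt had -0.05 ± 0.43 and -0.02 ± 0.39 (limma, adjusted p = 0.987 and 0.997). The part of these markers in the Krt12 values was not tested. At the Krt13 end Krt12 was 7.20 ± 4.87 CPM in Low and 8.67 ± 4.41 CPM in High (SD, n = 3 each), levels that rest on few UMIs.

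**Figure D4:**
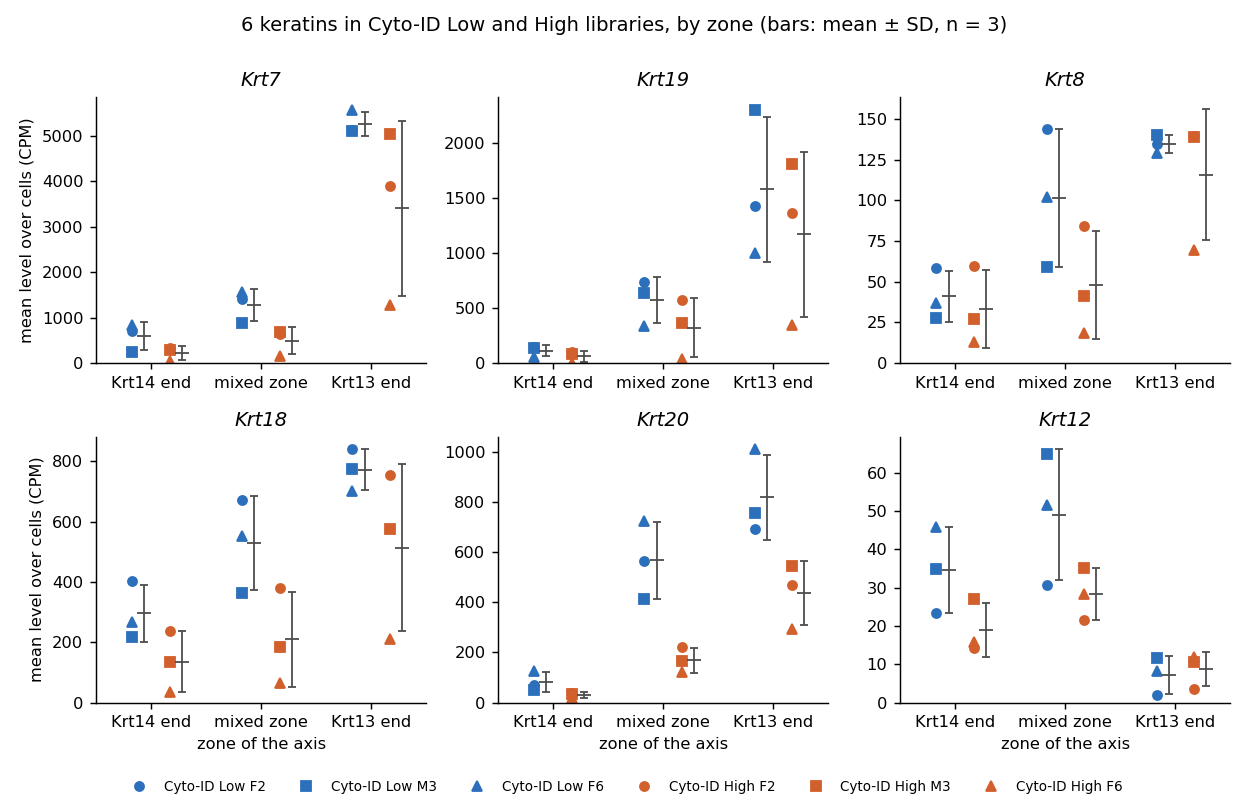
Mean level over cells (CPM) of each keratin in each library, by zone of the axis (blue Cyto-ID Low, orange Cyto-ID High; bars are the group's mean ± SD, n = 3). The groups are apart for Krt20 in all 3 zones and for Krt7 in the mixed zone and at the Krt13 end, and Cyto-ID High F6 (orange triangle) is the lowest point for Krt7, Krt8, Krt18, Krt19 and Krt20 in each zone. Of all genes tested, 10.3%, 10.5% and 3.39% are apart with High lower at the Krt14 end, in the mixed zone and at the Krt13 end.

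By zone, none of the 5 tested members passed at the Krt14 end, where 0.317% of 11680 genes passed as higher in High and 0.0% as lower. In the mixed zone none passed either, against 0.357% of 11200 genes higher and 0.00893% lower; the single lower gene was Alox15, a lipoxygenase, named after its value was seen. At the Krt13 end no gene passed of 10543 (limma), while an unadjusted p below 0.05 was reached by 229. When the tag entered the fit as a block, the calls became 67 over all cells, 78 at the Krt14 end and 82 in the mixed zone, in place of 14, 37 and 41, and again no tested member passed. Without Cyto-ID High F6 there were 3, 3 and 19 calls. Groups that did not overlap, with High lower, were found among the 5 tested members over all cells for Krt18, where 8.13% of all genes showed this. They were found at the Krt14 end for none (10.3% of all genes), in the mixed zone for Krt7 (10.5%) and at the Krt13 end for Krt7 (3.39%). The median log2 fold changes of the 5 genes in the 3 zones were -1.27, -1.33 and -0.71, against -0.00, -0.02 and -0.07 for all genes, and without Cyto-ID High F6 they were -0.60, -0.63 and 0.05. The fitted difference was below 0 for 5, 5 and 4 of the 5 genes, where 50.3%, 52.2% and 56.3% of all genes were below 0.

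Whether the step from the Krt14 end to the Krt13 end itself differed between the groups was tested on the log2 difference of both ends in each library. For Krt7 this step was 2.88 (F2), 4.34 (M3) and 2.72 (F6) in Low and 3.56 (F2), 4.10 (M3) and 4.71 (F6) in High, on the log2 scale of CPM before scaling. For Krt8, Krt18, Krt19 and Krt20 the step was higher in High for each tag on that scale. For Krt12 the step was a fall in every library, and a smaller fall in High for each tag. It was -3.05 (F2), -1.52 (M3) and -2.36 (F6) in Low and -1.71 (F2), -1.29 (M3) and -0.37 (F6) in High. The Krt12 levels at the Krt13 end were 1.94 to 11.9 CPM, near the pseudocount of 1. Without scaling, 35.4% of all genes had a fitted difference of the step below 0. After scaling, the High minus Low difference of the step was 0.54 ± 0.35 for Krt7, 0.56 ± 0.33 for Krt19, 0.40 ± 0.19 for Krt18 and 0.95 ± 0.42 for Krt12 (limma, adjusted p = 0.81 each). It was -0.07 ± 0.30 for Krt8 (limma, adjusted p = 0.97) and 0.21 ± 0.23 for Krt20, which has no p. Without scaling, which moved the median of all genes from -0.09 to 0.14, it was 0.81 ± 0.40 for Krt7 (limma, adjusted p = 0.70), and for Krt8 it turned to 0.19 ± 0.34 (adjusted p = 0.89). Single libraries moved these differences: for Krt7 it was 0.20 without Cyto-ID Low F6 and 1.04 without Cyto-ID Low M3, and for Krt12 0.60 without Cyto-ID Low F2. For Krt19 it was 0.16 without Cyto-ID High F6, 0.35 without Cyto-ID Low F2 and 0.93 without Cyto-ID High F2. No gene of 12054 passed this test (0.0%; limma, 661 at an unadjusted p below 0.05), and 8 did when the tag entered as a block, none of them a member.

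The share of cells at the Krt13 end, which held more Krt7 and Krt19 UMIs than the other zones or the cells off the axis in 5 of 6 libraries (in Cyto-ID High F6 the cells off the axis held more), was 22.6% (F2), 12.1% (M3) and 17.5% (F6) in Low and 10.5% (F2), 11.5% (M3) and 4.79% (F6) in High. The means were 17.4% ± 5.25 and 8.95% ± 3.63 (SD, n = 3 each), and all 3 Low libraries were above the 3 High libraries. The two-sided exact permutation test gave p = 0.10, the smallest p that 3 against 3 libraries allow. Over cells on the axis alone the shares were 18.6% ± 5.74 and 9.99% ± 2.67 (exact permutation p = 0.10). A level over all cells depends on this share, whereas the levels within zones were computed inside each zone. Of the 4 suprabasal markers, 2 also moved with the groups inside the zones. Krtdap, which ran against Krt7 within the Krt13 end, was 28.7 to 97.3 CPM in the Low and 793 to 1504 CPM in the High libraries over all cells, a log2 fold change of 4.24 ± 0.43 (limma, adjusted p = 0.0086). It was also higher in High at the Krt14 end (5.15 ± 0.62, adjusted p = 0.011) and in the mixed zone (4.08 ± 0.39, adjusted p = 0.0018), and had 3.47 ± 0.46 at the Krt13 end (adjusted p = 0.12). The mixed-zone call held without any 1 library. The call over all cells was lost without Cyto-ID High F6 (adjusted p = 0.051), and the one at the Krt14 end without High F2, High F6 or Low F6 (0.052, 0.061 and 0.10). Sbsn was 16.7 to 24.4 CPM in Low and 50.3 to 83.9 CPM in High over all cells (1.63 ± 0.28, limma, adjusted p = 0.086), and it was higher in High in the mixed zone (2.54 ± 0.27, adjusted p = 0.0026), but did not pass at the Krt14 end (1.33 ± 0.22, adjusted p = 0.053) or at the Krt13 end (1.71 ± 0.47, adjusted p = 0.99). Krt4 and Krt13, the other two, passed nowhere: over all cells they had -0.29 ± 0.49 and -0.39 ± 0.47 (limma, adjusted p = 0.90 and 0.85), and in the mixed zone 0.21 ± 0.37 and 0.04 ± 0.45. The superficial markers had values below 0 over all cells, -1.94 ± 0.73 for Sprr2f, -1.78 ± 0.80 for Tspan1 and -1.01 ± 0.65 for Psca, and none passed (limma, adjusted p = 0.58, 0.62 and 0.71). They too rested in large part on Cyto-ID High F6: without it they were -1.23, -0.78 and -0.46. Without Cyto-ID Low F2 Sprr2f was -1.28, and Psca was -0.61 without Cyto-ID Low F6 and -1.62 without Cyto-ID High M3. The part of these markers in the keratin differences was not tested.

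The keratins of stratified epithelium, the proteins that anchor keratins, and transcription factors linked to simple epithelium were looked at beside the 6 genes. None of the 4 basal keratins, of the 8 suprabasal and stress keratins tested among 14 listed, of 15 anchors of desmosomes and hemidesmosomes or of the 13 transcription factors tested among 20 passed over all cells, at the Krt14 end or in the mixed zone. None passed at the Krt13 end either, with 10 of the 14 suprabasal and stress keratins tested. The median log2 fold change over all cells was 0.01 for the basal keratins, -0.05 for the suprabasal and stress keratins, -0.05 for the anchors and -0.14 for the transcription factors, against -1.17 for the 5 tested members. Single genes of these lists, named after their values were seen, had differences of similar size. Krt23, which shares bin 5 as its highest with Krt7, was 227 ± 177 CPM in Low and 87.1 ± 75.4 CPM in High, a log2 fold change of -1.44 ± 0.66 (limma, adjusted p = 0.62), or -0.76 without Cyto-ID High F6 and -0.84 without Cyto-ID Low F2. Ppl, which encodes the cornified envelope protein periplakin, had -0.90 ± 0.37 (adjusted p = 0.61), or -0.59 without Cyto-ID Low F6, and Krt16 had 1.49 ± 0.42 (adjusted p = 0.44). Of the 14 non-members named above as most like a member, 13 were below 0 over all cells, with a median of -0.86 and the lowest value, -1.26, for Basp1, and none passed; they were chosen over points of both groups, so their likeness includes the difference between them. Krt5, the basal partner of Krt12 named above, was 3452 ± 532 CPM in Low and 3283 ± 322 CPM in High (SD, n = 3 each), a log2 fold change of 0.02 ± 0.31 after scaling (limma, adjusted p = 0.99), so that the fitted value and the unscaled means differ in sign. Ehf, an ETS factor of epithelia, was 473 ± 65.0 CPM in Low and 327 ± 67.4 CPM in High, a log2 fold change of -0.46 ± 0.27 (adjusted p = 0.69). Elf3, another ETS factor of simple and suprabasal epithelium, was 242 ± 99.0 and 141 ± 57.1 CPM, a log2 fold change of -0.69 ± 0.36 (adjusted p = 0.65), or -0.42 without Cyto-ID High F6 and -0.40 without Cyto-ID Low F2.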

How the data were processed

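Mouse esophageal organoid cells were profiled with a 10x 3′ kit in 6 libraries, 3 per group. Per the submitters' processing notes, Cell Ranger 6.0.0 and Seurat 4 were used with mm10/GRCm38. The deposited values are natural log values, ln(1 + UMIs per 10000), as the values themselves show: undoing the log gave 10000 in each cell, and 100% of values were whole UMIs (tolerance 1e-06). Every barcode deposited had 500 or more UMIs and under 10.0% (highest 9.998%) mitochondrial UMIs. Cells with 500 or more detected genes were kept; among cells at 400 to 499 and 500 to 599 genes the median Krt7 level over libraries was 2459 and 1858 CPM. No doublet caller was run.

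Mean CPM over cells was taken per library and zone, scaled by trimmed means of log ratios (trims of 30% and 5%) and tested as log2(CPM + 1) with limma 3.58.1 (trend, R 4.3.3) on genes at 1 CPM or more in 3 libraries, High minus Low; fold changes of low genes are understated by the pseudocount of 1. P-values were adjusted by Benjamini-Hochberg over all genes, at 0.05. limma was used because the deposited unit is a log value, and no count model was run on the recovered UMIs. Shares of cells were compared by exact permutation (Python 3.11.15, scipy 1.17.1). Scripts were tested on simulated data. Loci are from GENCODE, promoters from RefSeq; a promoter sequence was found for 5 of 6 members, and Krt19 has none shown.

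The members, gene lists and tests were chosen with earlier results of these data known. Genes named as alike are the 3 with the highest Pearson r of log2(CPM + 1) over 30 library-by-bin means; other genes named come from the lists. The tags F2, M3 and F6 occur in both groups, and what they stand for is not given in the sources used here. Libraries with the same tag deviated together for F2 and M3 (r = 0.76 and 0.58 over 8878 genes). For F6 r was 0.15, within the -0.62 to 0.18 found between unlike tags. Deviations were taken from the mean of each group's 3 libraries, which ties these r to each other. The range between unlike tags is therefore no independent reference. Because same-tag libraries deviated together for F2 and M3, a fit with the tag as a block is given where it changes a count. The SE and p of the main fits, and the exact permutation p, take no account of the tag.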

Additional observations from a re-analysis of the deposited data

How the results depend on the processing

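The median ratio of bin 5 to bin 1 (for Krt12, of bin 2 to bin 1) kept its direction in all 36 alternatives run for it. It moved by less than the spread between libraries. The ratio of bin 2 to bin 1 moved more in single libraries. Its lowest value went from 1.01 to 0.384 for Krt8 when thinned, and from 3.38 to 1.95 for Krt20 with 20 UMIs for the axis. No tested member passed an adjusted p of 0.05 in any of the 5 comparisons under any alternative; the lowest over the alternatives was 0.20 over all cells (Krt7), 0.21 at the Krt14 end (Krt12), 0.13 in the mixed zone (Krt7) 0.40 at the Krt13 end (Krt18) and 0.31 for the difference of the ends (Krt19). The share of cells at the Krt13 end stayed lower in High in all 11 alternatives, by 4.14 percentage points (thinned) at the least and 11.1 (without Low M3) at the most. The exact permutation p was 0.10 or 0.20, and 0.20 is the smallest possible without 1 library. It was also 0.20 with 1000 or more detected genes, when thinned and without the 5% deepest cells. In these the groups overlapped, since High M3 was above Low M3 (13.9% against 11.6% with 1000 or more detected genes). Over cells on the axis alone, p was 0.20 with 1000 or more detected genes and 0.30 without the 5% deepest cells (exact permutation).

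The counts of genes called moved more. With the replicate block there were 67 over all cells, 78 at the Krt14 end, 82 in the mixed zone and 8 for the difference of the ends, and the block changed no call of a tested member. Plain CPM gave 26 over all cells. A pseudocount of 0.1 CPM gave 5 over all cells and 23 in the mixed zone, and no filter on low values gave 0, 1 and 0 over all cells, at the Krt14 end and in the mixed zone. Thinned cells gave 22 over all cells, 17 at the Krt14 end and 2 at the Krt13 end. Without the 5% deepest cells 3 were called at the Krt13 end. Zones cut at each library's tertiles gave 12 in the mixed zone, 26 at the Krt13 end and 8 for the difference of the ends. The cause was not tested. Leaving out 1 library gave 3 to 20 calls over all cells (Low F6 8, High F2 6, High F6 3), 3 to 34 at the Krt14 end (Low F2 23, Low F6 9, High F2 8, High F6 3), 15 to 52 in the mixed zone (Low F6 15, High F6 19) and 0 to 3 at the Krt13 end (3 without Low F2).

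Of the 440 log2 fold changes of the 5 tested members under the alternatives, 426 kept their direction and 14 turned, none of them past the threshold. For Krt20, which has no test, 85 of 88 kept it, and the difference of the ends turned to -0.18 with tertiles, -0.0232 with 20 UMIs for the axis and -0.0203 without Low F6; its difference at the Krt13 end became -1.63 with tertiles. Without High F6, Krt8 became 0.13 at the Krt14 end (-0.77 to 0.13 when 1 library was left out) and 0.0495 at the Krt13 end (-0.59 to 0.0495), and Krt19 became 0.0799 at the Krt13 end (-1.26 to 0.0799). Krt12 at the Krt13 end became -0.61 with 1000 or more detected genes, -0.0447 when thinned and -0.33 without Low F2 (-0.33 to 0.77 when 1 library was left out). For the difference of the ends, tertiles gave -0.0575 for Krt7 and -0.18 for Krt18, and 1000 or more detected genes gave -0.0372 for Krt12. Krt8 there became 0.19 with plain CPM, 0.25 when thinned, 0.0435 without the deepest cells, 0.18 without Low M3 and 0.20 without High F2 (-0.31 to 0.20 when 1 library was left out). Plain CPM moved the median of all genes for that difference from -0.09 to 0.14.

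Depth limits Krt12 and Krt8 most: Krt12 had 179 to 1542 UMIs and Krt8 246 to 4380 UMIs per library, and with 1000 or more detected genes as few as 39 cells of a library were left at the Krt13 end.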

Other observations

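Cells off the axis, with fewer than 10 UMIs of Krt13 and Krt14, belong to no zone of the comparisons. In them Krt7 was 3008 (F2), 3105 (M3) and 1693 CPM (F6) in the Low libraries and 1554 (F2), 2766 (M3) and 342 CPM (F6) in the High libraries. Each of these levels is above that of the same library's mixed zone. Krt8, the type II simple keratin, was lower off the axis than at the Krt13 end in 5 of 6 libraries, and Krt18 in 4 of 6. The exceptions were Cyto-ID High M3 for both (298 against 139 CPM for Krt8 and 881 against 574 CPM for Krt18) and Cyto-ID Low F2 for Krt18 (843 against 841 CPM). In Cyto-ID High F6, whose off-axis cells are 31.2% of the library, they held 39.9% of its Krt7 UMIs and 47.6% of its Krt8 UMIs. Krt20 stood lower off the axis than in the mixed zone in 5 of 6 libraries; in Cyto-ID High M3 it was 206 CPM off the axis and 164 CPM in the mixed zone. The median depth of the off-axis cells was 1482.5 to 4134.5 UMIs, below that of the Krt13 end in each library.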
